A study of Homo sapiens with 6 samples.

Results

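The BCL2 family decides whether the outer mitochondrial membrane is breached during apoptosis, and transcripts of its best known members were measured in MM.1S myeloma cells given enzastaurin. Of 10 genes listed as members, 9 had at least 1 probe set that the platform annotation pairs with exactly 1 gene symbol, out of 11963 such genes on the array. The 9 genes, BCL2, BCL2L1, MCL1, BCL2A1, BCL2L11, BAX, BAK1, BID and PMAIP1, were read by 22 probe sets in all, a probe set being a group of short oligonucleotides against 1 transcript region. The probe set annotated with BBC3 lists other symbols as well, so BBC3 was not analysed here. Probe sets were assigned to the listed genes by symbol.

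MM.1S is an established human multiple myeloma cell line, and enzastaurin is a small molecule inhibitor of protein kinase C beta. Cells received enzastaurin for 3, 6 or 12 h, and controls were left untreated for the same times; no dose or vehicle is given in the sources used here. Each treatment and time was read on 1 Affymetrix array, which makes 3 enzastaurin and 3 untreated arrays, and nothing in the labels says whether the arrays came from separate cultures. The p-values below therefore rest on the spread between these 6 arrays and on that of other probe sets, part of which may be technical. In the fit over all 3 times, a ratio that changes with time counts as spread. All values are MAS5 intensity values on a linear scale or log2 ratios of enzastaurin over untreated cells at a matched time. Intensities of different probe sets cannot be ranked as transcript levels, because probes differ in how well they hybridise.

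The proteins of the family fall into guardians, effectors and BH3-only sensors. The guardians BCL2, BCL-XL (encoded by BCL2L1), MCL1 and BCL2A1 hold the membrane closed, and the effectors BAX and BAK1 open it when they assemble into pores. The BH3-only proteins, among them BIM (encoded by BCL2L11), BID, PUMA (encoded by BBC3) and NOXA (encoded by PMAIP1), sense stress and either occupy the guardians or activate the effectors. Myeloma cells are known for their dependence on MCL1, NOXA binds mainly MCL1, and BIM binds all guardians. The BCL2L1 transcript is also spliced into a short form, BCL-XS, which promotes death.

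The stretches before the starts of BCL2L11 and PMAIP1 are shown because both BH3-only genes were among the members with the largest changes in intensity and each held 1 match to a searched stress motif. The sequences are the 250 bases before the start site in RefSeq, build GRCh38.p14, given 5′ to 3′ on the strand of the gene. BCL2L11 lies on the forward strand of chromosome 2, and its stretch is chr2:111120664-111120913. PMAIP1 lies on the forward strand of chromosome 18, and its stretch is chr18:59899746-59899995. Capitals mark a match to a searched motif.

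BCL2L11: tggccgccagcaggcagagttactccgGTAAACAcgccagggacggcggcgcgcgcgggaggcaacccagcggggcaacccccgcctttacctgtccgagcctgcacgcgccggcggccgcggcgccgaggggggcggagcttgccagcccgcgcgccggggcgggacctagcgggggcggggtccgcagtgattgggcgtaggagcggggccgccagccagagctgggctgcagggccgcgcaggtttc

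PMAIP1: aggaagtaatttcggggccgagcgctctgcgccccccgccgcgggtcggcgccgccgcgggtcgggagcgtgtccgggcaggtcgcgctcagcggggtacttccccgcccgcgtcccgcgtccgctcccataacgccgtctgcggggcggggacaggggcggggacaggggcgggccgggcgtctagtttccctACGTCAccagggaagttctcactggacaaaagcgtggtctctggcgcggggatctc

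Motifs were searched on both strands in the 14 such windows that RefSeq holds for 9 of the 10 listed genes. MCL1 was not matched. The forkhead (FOXO) letters GTAAACA occurred 223 to 217 bases before the BCL2L11 start, in 1 of the 14 windows, and in 2.98 percent of 35116 windows of all genes. The cyclic AMP response element core TGACGT occurred on the reverse strand 56 to 51 bases before the PMAIP1 start, again in 1 of the 14 windows, and in 7.10 percent of all windows. No match was found in the windows of the 2 BCL2L1 starts for these or for the CHOP and ATF4 composite TGATGNAA, the AP-1 letters TGANTCA or the STAT letters TTCNNNGAA. BCL2A1 held TGATGNAA and TTCNNNGAA once each, and these letters occurred in 3.14 and 6.57 percent of all windows. BBC3 held TGANTCA, which occurred in 6.57 percent. The matches did not overlap one another and are a description of these letters, not of a bound site.

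The arrays were alike in overall brightness, with median intensities from 62.2 to 67.6, and differed in RNA measures. The log2 ratio of the 3′ over the 5′ ACTB probe set was 1.89, 1.16 and 1.60 without the drug at 3, 6 and 12 h and 2.004, 0.57 and 0.86 with it. Ribosomal RNA probe sets had a mean log2 intensity of 3.39, 11.98 and 9.29 without the drug and 9.99, 3.79 and 3.02 with it. Treated cells thus exceeded their controls in both measures at 3 h and fell short of them afterwards, and the 3′ to 5′ log2 ratio of GAPDH, 0.28, 0.23 and 0.30 without the drug, was lower in each pair at 0.23, -0.11 and 0.24. Of 9 plasma cell markers, 8 lay above the intensity filter, and CD27 was the exception at a geometric mean of 16.3. Markers of T cells, monocytes, erythroid cells and hepatocytes, which a myeloma line should lack, had a median of 36.9, and 2 of the 17 measured passed the filter. These were HBB, at a geometric mean of 264, and TRAT1, at 119. A value above the median thus does not by itself show that a transcript is present. Values near or under that median carry little information on the transcript.

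Of the 22 member probe sets, 15 passed the filter, a geometric mean of at least 63.3 over the 6 arrays, and they covered 7 of the 9 genes. BCL2A1 and BAX had no probe set above it. The filter uses all arrays, so a gene bright in 1 treatment alone can pass through that treatment.

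**Figure D1:**
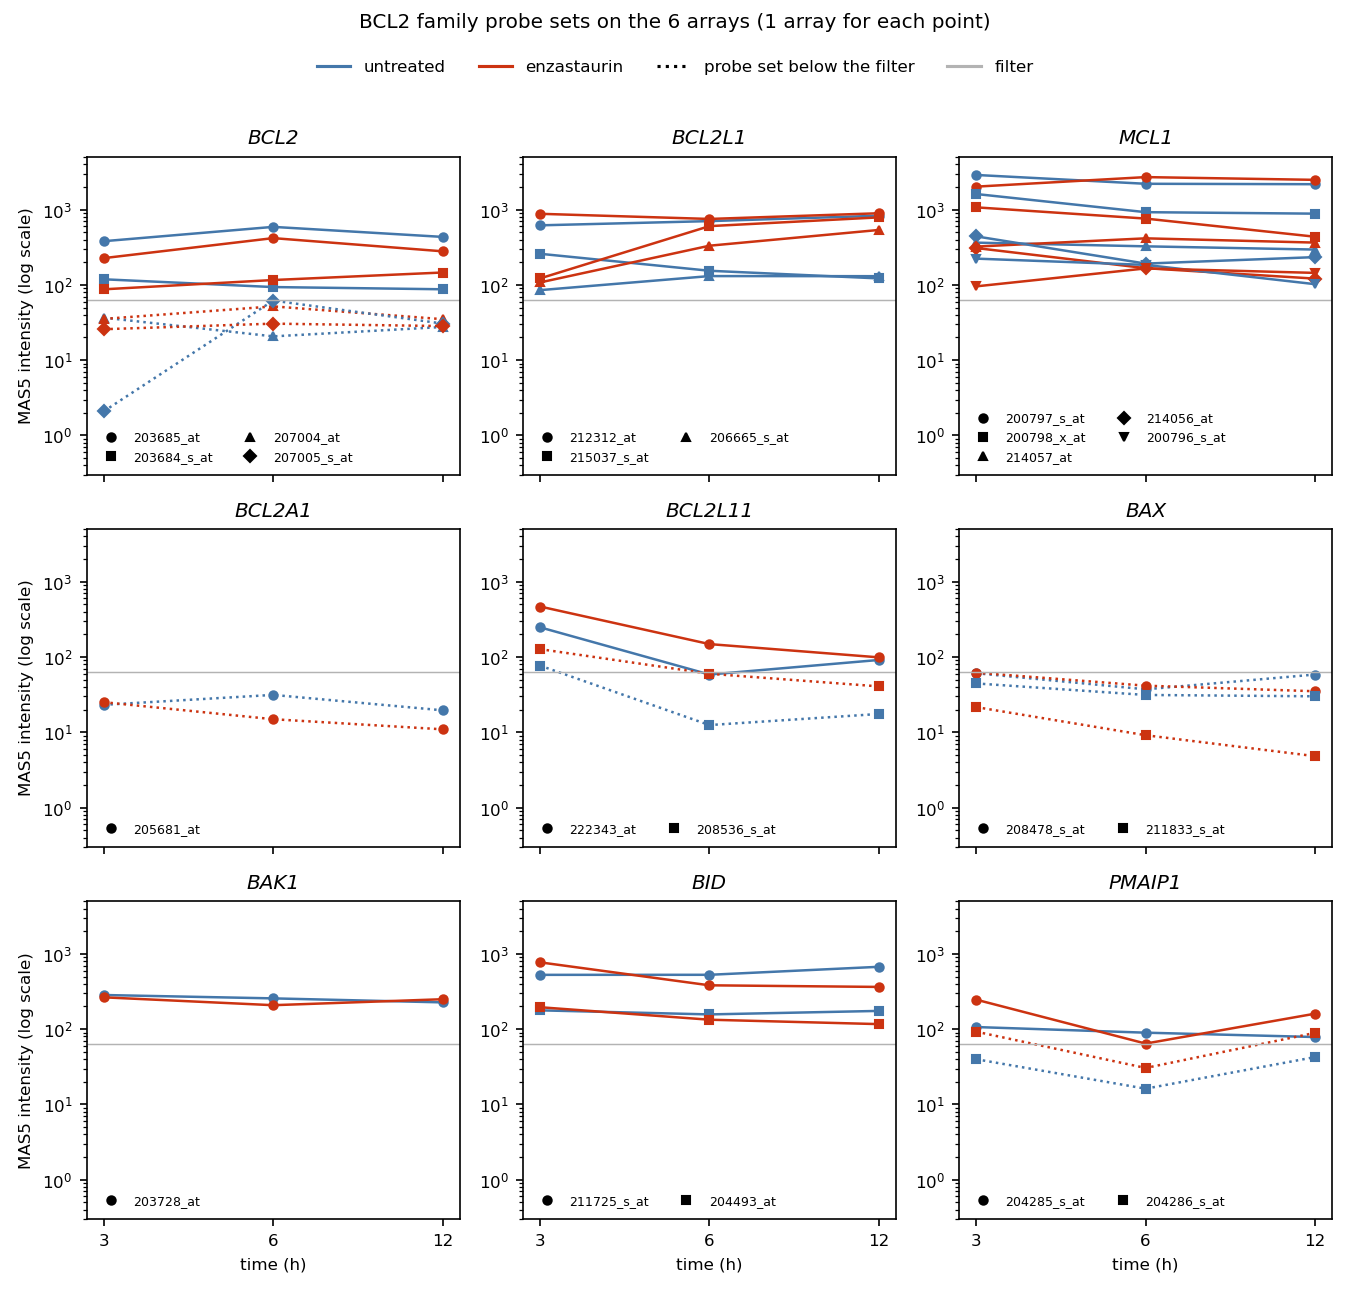
MAS5 intensity (log scale) of every member probe set against time, with 1 panel a gene, 1 symbol a probe set, blue for untreated and red for enzastaurin. Each point is 1 array, dotted lines mark probe sets below the filter of 63.3, and BCL2L1 shows 2 probe sets that part by treatment at 6 and 12 h while the brightest stays between 617 and 893.

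The question of the first comparison was which members enzastaurin altered across the 3 times. None passed. In the fit of 6838 genes, with the brightest probe set for each, limma called 0 of 7 members, and 4 genes or 0.0585 percent were called in all. At an unadjusted p under 0.05 there was 1 of 7 members, BCL2L11, where 5.41 percent of all genes reached it. Among the 15 member probe sets limma called 0 (0.0408 percent of 9798 kept probe sets were called) and 3 had an unadjusted p under 0.05, which 5.70 percent of all kept probe sets had. Mean ratios of the 7 members lay above 0 in 3 and below 0 in 4, with a median of -0.01 against -0.05 for all tested genes. In bulk RNA, fewer cells that express a gene and less of its RNA in each cell cannot be told apart.

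Among the 15 probe sets, 0 had enzastaurin and untreated values that did not overlap, where 10.4 percent of all kept probe sets had. At 3 h 1 member probe set was higher by 2-fold or more and 2 were lower by as much, where 2.17 and 2.91 percent of all kept probe sets were. At 6 h 3 were higher and 0 lower (6.00 and 3.55 percent of all), and at 12 h 3 were higher and 1 lower (4.35 and 10.2 percent). The median log2 ratio of the 15 was -0.17, -0.15 and 0.14 at 3, 6 and 12 h, beside -0.05, 0.07 and -0.17 for all kept probe sets. The ratio kept 1 sign at all times in 6 of the 15, beside 23.3 percent of all. The 6 h and 12 h gains came from the same pair of BCL2L1 probe sets, joined by BCL2L11 at 6 h and by PMAIP1 at 12 h.

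**Figure D2:**
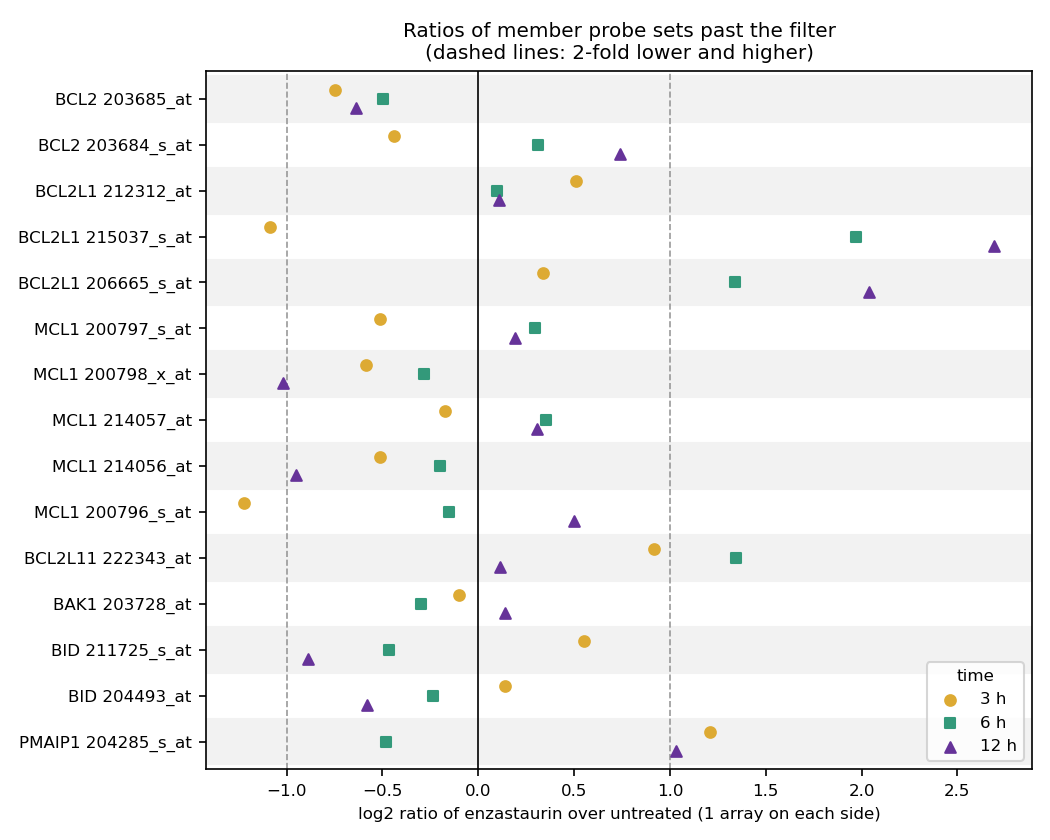
Log2 ratio of enzastaurin over untreated cells at 3 h (circles), 6 h (squares) and 12 h (triangles) for the 15 member probe sets past the filter, 1 array on each side. The widest excursions are those of BCL2L1 215037_s_at, from -1.09 at 3 h to 2.69 at 12 h, and probe sets of MCL1 and of BCL2 lie on both sides of 0.

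Among the guardians' probe sets past the filter, BCL2L1 had the largest enzastaurin ratios and, at each time, the widest gap between ratios of 1 gene. The probe set 215037_s_at read 259, 154 and 122 without the drug at 3, 6 and 12 h and 122, 603 and 788 with it. Untreated and treated cells thus changed places between 3 h and 6 h, and the treated cells were 3.92-fold higher at 6 h and 6.47-fold higher at 12 h. The probe set 206665_s_at read 85.1, 131 and 130 without the drug and 108, 331 and 536 with it, a ratio of 1.27-fold, 2.53-fold and 4.11-fold. Its enzastaurin values at 6 h and 12 h exceeded every untreated value, and only the 3 h value fell within the untreated range.

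The third and brightest BCL2L1 probe set, 212312_at, did not share this pattern. It read 617, 703 and 828 without the drug and 879, 751 and 893 with it, so the ratio was 1.42-fold at 3 h and 1.07-fold and 1.08-fold at 6 h and 12 h. Its mean log2 ratio was 0.24 (SE 0.27, n = 3 time-matched ratios, adjusted p = 0.988). The mean log2 ratio was 1.19 for 215037_s_at (SE 0.55, adjusted p = 0.878) and 1.24 for 206665_s_at (SE 0.36, adjusted p = 0.407), neither of which was called by limma.

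When the later pairs, 6 h and 12 h, were fitted alone, both of these BCL2L1 probe sets were called higher. The log2 ratio there was 2.33 for 215037_s_at (SE 0.34, n = 2 ratios, adjusted p = 0.00148) and 1.69 for 206665_s_at (SE 0.34, n = 2, adjusted p = 0.0122), and it was 0.10 for 212312_at (SE 0.29, adjusted p = 0.915). That makes 2 of 15 member probe sets, beside 3.17 percent of all kept probe sets, and 0 of the 7 brightest ones, beside 3.61 percent of all genes. At an unadjusted p under 0.05 in limma there was 1 of the 7, BID, where 15.9 percent of all genes reached it. This fit was 1 of those that each left out a time, and not a main comparison. It left out the 3 h pair, where the log2 ratio was -1.09 for 215037_s_at and 0.34 for 206665_s_at. Without the 6 h or the 12 h pair instead, limma called 0 genes and neither of these 2 probe sets. The fit of the later pairs has 1 residual degree of freedom, so most of its error comes from the spread of other probe sets. The ACTB 3′ to 5′ ratio and the ribosomal RNA intensity were lower with enzastaurin in both of these pairs, and their part in the BCL2L1 result was not tested.

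The change of the ratio with time was examined through its slope per doubling of hours, and a gradual course and a jump past 3 h give alike slopes. The slope of BCL2L1 215037_s_at was 1.89 (SE 0.38, adjusted p = 0.000293 in limma), the 1 call among 15 member probe sets, where 1.49 percent of all kept probe sets were called. The slope was 0.85 for 206665_s_at (SE 0.38, adjusted p = 0.334) and -0.20 for 212312_at (SE 0.34, adjusted p = 0.889). Among the 7 members in the fit of genes limma called 0 (1.43 percent of all genes), and 1, BID, had an unadjusted p under 0.05, which 11 percent of all genes had. The slope call of 215037_s_at was lost with equal medians of the kept probe sets (slope 1.96, adjusted p = 0.0622) and with no filter (slope 1.89, adjusted p = 0.0696). This fit has 1 residual degree of freedom, and limma set its error from the spread over all probe sets by intensity. How far the 3 ratios of a probe set depart from a line thus did not enter its own p-value.

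**Figure D3:**
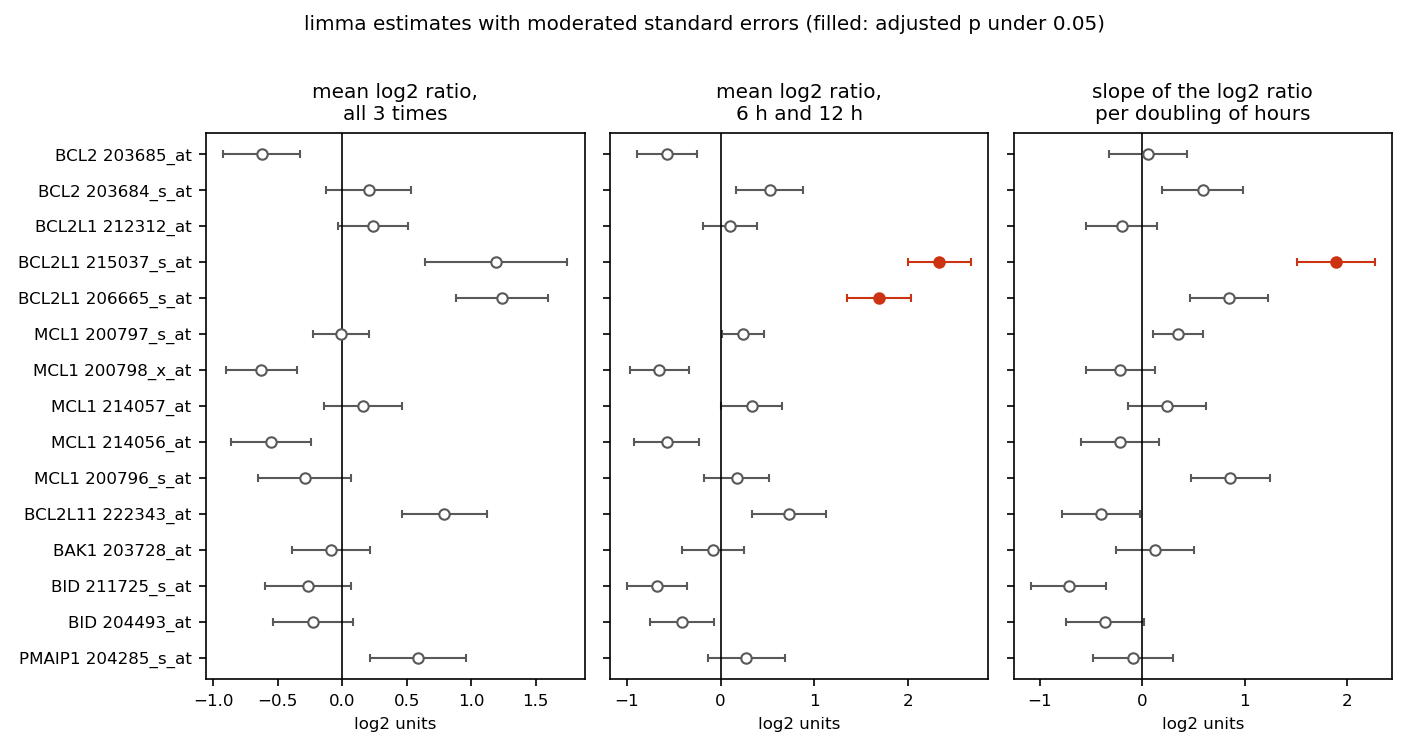
Estimates for the 15 member probe sets from the limma fits of all 9798 kept probe sets, with moderated standard errors as bars. The panels give the mean log2 ratio over 3 times, the mean over 6 h and 12 h, and the slope per doubling of hours; filled red points passed an adjusted p under 0.05, which in these fits are BCL2L1 215037_s_at in the later pairs and in the slope and 206665_s_at in the later pairs.

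How unusual this discord between probe sets is was read from the 2054 genes with more than 1 kept probe set. The gap between the highest and lowest BCL2L1 log2 ratio was 1.60, 1.87 and 2.58 at 3, 6 and 12 h, larger than in 98.5, 97.8 and 98.8 percent of these genes, whose median gap at 12 h was 0.54. The gap grows with the number of probe sets, and BCL2L1 had 3. Over the 6 arrays, log2 intensities of 215037_s_at and 206665_s_at had a Pearson r of 0.86, and 212312_at had 0.06 and 0.49 with them (n = 6 arrays that share treatment and time). The sources used here do not say where in the transcript each probe set lies or which splice form it reads.

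**Figure D4:**
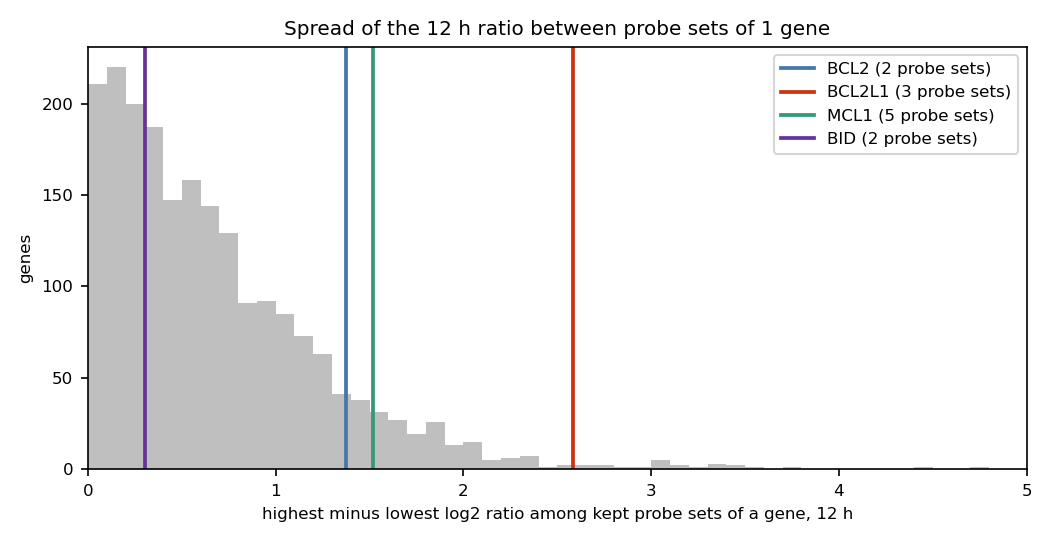
Histogram over 2054 genes of the gap, in log2 units, between the highest and the lowest 12 h ratio among kept probe sets of a gene. Lines mark BCL2L1 at 2.58, MCL1 at 1.52, BCL2 at 1.38 and BID at 0.31.

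MCL1, the guardian on which myeloma cells lean most, had 5 probe sets, and all passed the filter. The brightest, 200797_s_at, read 2882, 2201 and 2173 without the drug and 2017, 2700 and 2482 with it. Its values overlapped throughout, the highest was only 1.43-fold above the lowest, and its mean log2 ratio was -0.01 (SE 0.22, n = 3, adjusted p = 1.0), which became 0.0564 with quantile normalization and 0.24 without the 3 h pair. On every array it stood above at least 96.7 percent of all probe sets.

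Another MCL1 pattern came from 200798_x_at and 214056_at. The former read 1609, 924 and 883 without the drug and 1070, 759 and 436 with it, so each treated value was below its time-matched control and the gap was widest, 2.02-fold, at 12 h. The latter read 441, 192 and 234 against 308, 167 and 121, and it was 1.93-fold lower at 12 h. The mean log2 ratio was -0.63 for 200798_x_at (SE 0.28, n = 3, adjusted p = 0.848) and -0.55 for 214056_at (SE 0.31, n = 3, adjusted p = 0.976), so neither was called. The suffix x marks probe sets with probes that can also match other transcripts, and none of the probes was checked here.

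The remaining MCL1 probe sets, 214057_at and 200796_s_at, varied over the arrays with the brightest one (r 0.79 and 0.78 with 200797_s_at). 214057_at stayed between 294 and 415, with log2 ratios of -0.17, 0.35 and 0.31. 200796_s_at was at 223, 184 and 102 without the drug and at 95.5, 165 and 144 with it, a log2 ratio of -1.22 at 3 h that turned to 0.50 at 12 h. Over the 6 arrays the r was 0.95 between 200798_x_at and 214056_at and 0.10 between the 2 brightest. MCL1 had 5 probe sets, and the gap between probe sets grows with their number. Its gap was 1.05, 0.64 and 1.52 at 3, 6 and 12 h, larger than in 93.4, 64.3 and 91.7 percent of genes with several probe sets. No direction for MCL1 transcripts can therefore be given from these arrays.

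BCL2, named for the translocation that overexpresses it in follicular lymphoma, was read by 2 probe sets above the filter and 2 below. The brighter, 203685_at, read 380, 589 and 434 without the drug and 227, 418 and 279 with it. Every treated value lay below its time-matched control, and the 6 h treated value stayed above the 3 h untreated one. The mean log2 ratio was -0.63 (SE 0.29, n = 3, adjusted p = 0.905), with -0.75, -0.50 and -0.64 at 3, 6 and 12 h. It was not called, and its size hardly moved with time (slope 0.06, SE 0.37).

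The second BCL2 probe set, 203684_s_at, drifted the other way at later times. It read 119, 93.5 and 87.4 without the drug and 87.3, 116 and 146 with it, log2 ratios of -0.44, 0.31 and 0.74 (mean 0.20, SE 0.33, n = 3, adjusted p = 0.991). Across the arrays its r with 203685_at was -0.20. The weak probe sets 207004_at, at 20.7 to 51.8, and 207005_s_at, at 2.10 to 61.8, lay around the level of markers this line should lack. BCL2A1, an NF-kappaB target that protects activated lymphocytes, was at 11.0 to 31.4 on all arrays, below the median of those markers, and was not tested.

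Among the BH3-only genes, BCL2L11 changed most with time and stood higher with enzastaurin in each pair. Its probe set 222343_at read 248, 58.5 and 91.3 without the drug at 3, 6 and 12 h and 468, 148 and 98.9 with it. The 3 h arrays were the highest in both treatments, and the enzastaurin excess was 1.89-fold at 3 h, 2.54-fold at 6 h and 1.08-fold at 12 h. The untreated 6 h value of 58.5 is weak, so the 6 h fold is not exact. The mean log2 ratio was 0.79 (SE 0.33, n = 3, adjusted p = 0.835), not called by limma. Without the 12 h pair it was 1.13, and without the 6 h pair 0.52, and neither fit called it.

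The weaker BCL2L11 probe set, 208536_s_at, followed the same course. It read 76.9, 12.5 and 17.5 without the drug and 127, 59.9 and 40.7 with it, log2 ratios of 0.73, 2.26 and 1.22. The untreated values at 6 h and 12 h lie below the median of absent markers, so these sizes are not exact. The r between the 2 probe sets was 0.94 over 6 arrays.

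Between 12 h and 3 h, over both treatments, BCL2L11 222343_at differed by -1.84 (SE 0.40, adjusted p = 0.999 in limma). The log2 difference was -1.44 in untreated cells and -2.24 with enzastaurin. In this comparison limma called 0 of 7 members and 0 of 6838 genes (0.00 percent). An unadjusted p under 0.05 was reached by 148 genes, BCL2L11 among them as the 1 member of the 7. Among the 15 member probe sets limma called 0, and 4 had an unadjusted p under 0.05, which 2.51 percent of all kept probe sets had. Beside BCL2L11 222343_at these were BCL2L1 206665_s_at (1.47), MCL1 200798_x_at (-1.08) and MCL1 214056_at (-1.13). The FOXO letters of the BCL2L11 stretch shown above are those of a family of factors for which the transcripts FOXO3 and FOXO1 had mean log2 ratios of -0.29 (adjusted p = 0.980) and -0.13 (adjusted p = 0.999).

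PMAIP1, which encodes the MCL1 antagonist NOXA, was higher with enzastaurin at 3 h and 12 h and not at 6 h. Its probe set 204285_s_at read 107, 89.8 and 78.6 without the drug and 246, 64.3 and 160 with it. Treated cells were 2.31-fold higher at 3 h and 2.04-fold higher at 12 h, and 1.40-fold lower at 6 h, where the treated value was the lowest of all 6. That value, 64.3, is weak, so the 6 h fold is not exact. The mean log2 ratio was 0.59 (SE 0.37, n = 3, adjusted p = 0.980), not called. Without the 6 h pair it was 1.12, still not called.

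The second PMAIP1 probe set, 204286_s_at, was below the filter and read 39.8, 16.2 and 42.5 without the drug and 92.6, 30.5 and 89.3 with it. Its log2 ratios of 1.22, 0.91 and 1.07 had 1 sign, while the 6 h array was the lowest within each treatment. The 6 h values of 16.2 and 30.5 lie below the median of absent markers. The untreated values at 3 h and 12 h, 39.8 and 42.5, lie near it, so these ratios are not exact. The r between the 2 PMAIP1 probe sets was 0.78.

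BID, which caspase cleavage turns into an activator of BAX and BAK1, had 2 probe sets of like course. 211725_s_at read 526, 527 and 673 without the drug and 771, 382 and 364 with it. The treated cells were highest of all at 3 h and lowest of all at 6 h and 12 h, with log2 ratios of 0.55, -0.46 and -0.89. 204493_at read 178, 157 and 175 against 196, 133 and 117, log2 ratios of 0.14, -0.23 and -0.58. The r between them was 0.94, and their gap at 12 h, 0.31, was larger than in 31.1 percent of genes with several probe sets.

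The BID slope was -0.72 for 211725_s_at (SE 0.36, adjusted p = 0.440 in limma) and -0.36 for 204493_at (SE 0.38, adjusted p = 0.803), neither called. In the 6 h and 12 h pairs the log2 ratio of 211725_s_at was -0.68 (SE 0.32, n = 2, adjusted p = 0.308). Over all 3 times it was -0.27 (SE 0.33, n = 3, adjusted p = 0.991), and without the 12 h pair 0.0439.

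Of the effectors, BAK1 passed the filter and varied little, and BAX had no probe set past it. BAK1 203728_at read 284, 256 and 227 without the drug and 265, 208 and 250 with it. The groups overlapped, the highest value was 1.37-fold above the lowest, and the mean log2 ratio was -0.09 (SE 0.29, n = 3, adjusted p = 0.999). BAX had geometric means of 47.8 and 18.5, beside a median of 36.9 for the markers this line should lack. Its probe set 208478_s_at was at 60.9, 37.2 and 58.5 without the drug and at 61.95, 41.6 and 35.1 with it. The weaker BAX probe set, 211833_s_at, was at 44.6, 31.3 and 30.1 against 21.6, 9.14 and 4.82. The 2 groups did not overlap in this 1 of the 22 probe sets, beside 10.4 percent of all kept probe sets, to which it does not belong. Of its 6 values 5 lie under the median of absent markers, so no fold is given.

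Probe sets of other genes with the most similar course over the 6 arrays were listed for the 4 tested members whose intensity ranged over at least 1 log2 unit. For BCL2L11 they were NDEL1 (Pearson r 0.98), SAP130 (0.97) and SETD5 (0.96), and for BCL2 MAZ (0.99), HK1 (0.98) and RAD23B (0.97). For BID they were PIK3R5 (0.997), TXNL4A (0.99) and NAA35 (0.99), and for PMAIP1 IDH2 (0.94), FAM168A (0.93) and CYTH4 (0.92). NDEL1, which works with dynein, read 412, 196 and 265 without the drug and 506, 352 and 242 with it. With 6 points and 6838 genes such values arise readily, and they are given as a description.

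The other members of the family mostly had no probe set past the filter. Of 14 listed genes 10 had a probe set, 3 passed the filter and limma called 0 of them in the fits of treatment, slope, 12 h against 3 h or the later pairs. BAD, a BH3-only protein held inactive by phosphorylation, read 99.4, 214 and 241 without the drug and 210, 125 and 199 with it. Its log2 ratios were 1.08, -0.77 and -0.28 (mean 0.01, SE 0.37, n = 3). BNIP3L, a mitophagy receptor, had log2 ratios of 0.27, -0.23 and -1.24 (mean -0.40, SE 0.34, n = 3, adjusted p = 0.986), and BCL2L13 had -0.22, -0.21 and -0.78 (mean -0.40, SE 0.30, n = 3, adjusted p = 0.980).

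The partners of the family at and after the mitochondrion were better measured. Of 15 genes 14 were tested, 0 were called by limma in any of these fits, and 2 of the 14 had a mean ratio above 0, beside 43.4 percent of all genes. Their median mean ratio was -0.10 against -0.05 over all genes, and by time it was 0.12, -0.03 and -0.55 at 3, 6 and 12 h against -0.04, 0.06 and -0.18. CASP9, the initiator caspase of the apoptosome, had a mean log2 ratio of -0.30, ENDOG, a mitochondrial nuclease, 0.30, and the outer membrane channels VDAC3 and VDAC1 -0.28 and -0.22. CYCS, which encodes cytochrome c, had -0.04. In limma the adjusted p-values of the 14 genes started at 0.980 over all 3 times and at 0.193 for the slope. The latter is that of ENDOG, with log2 ratios of 1.51, -0.08 and -0.54 at 3, 6 and 12 h.

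Of 26 listed regulators of the family 22 had a probe set and 19 were tested, and limma called 0 over all 3 times. The slope fit called 1 of the 19, where 1.43 percent of all genes were called, and the fit of the later pairs 3, where 3.61 percent were. FBXW7, part of a ubiquitin ligase that marks MCL1 for destruction, was called downward by the slope (-1.57, SE 0.41, adjusted p = 0.0181), and read 108, 49.1 and 154 without the drug and 155, 55.9 and 25.1 with it. No gene kept a slope call with quantile normalization or with equal medians of the kept genes, FBXW7 included. The 12 h log2 ratio was -2.62, against 0.53 and 0.19 at 3 h and 6 h, and the treated value at 12 h is below the median of absent markers.

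STAT3, an inducer of MCL1 and BCL2L1 in myeloma, was called higher in the later pairs, the limma fit without the 3 h pair (log2 ratio 1.29, SE 0.32, n = 2, adjusted p = 0.0315). It read 250, 267 and 261 without the drug and 253, 548 and 761 with it, and so kept the untreated level at 3 h and exceeded it at 6 h and 12 h. The other calls of that fit were DDIT3, which encodes CHOP, a repressor of BCL2 and inducer of BCL2L11 under endoplasmic reticulum stress (log2 ratio 1.53, SE 0.37, n = 2, adjusted p = 0.025), and MYC, which was lower (-1.31, SE 0.31, n = 2, adjusted p = 0.0238). DDIT3 read 91.5, 68.5 and 92.7 without the drug and 437, 148 and 357 with it, and ATF3, a partner of CHOP, 187, 116 and 199 against 944, 185 and 730. Both had their treated maximum at 3 h, a dip at 6 h and another high value at 12 h, as PMAIP1 204285_s_at had. The treated values of BAD, 210, 125 and 199, and of BAK1 203728_at, 265, 208 and 250, had this order as well. Those of BCL2L11 222343_at, 468, 148 and 98.9, fell throughout. How many of all genes have this order was not counted. BAD was below its control at 6 h and 12 h (log2 ratios of -0.77 and -0.28), where DDIT3 and ATF3 were above theirs. Without the drug DDIT3 and ATF3 also dipped at 6 h, while PMAIP1 204285_s_at fell from 107 to 89.8 and 78.6. Untreated BAD rose from 99.4 to 214 and 241. The members and these genes were read on the same arrays, and no relation between them was tested.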

How the data were processed

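The deposited values are MAS5 intensity values on a linear scale, 1 column an array, made by the authors with MAS5 per the submitters' processing notes; for version, scaling target and detection calls the sources used here give nothing. MAS5 scales each array as a whole, and weak probe sets are noisy. Probe sets were named from the platform annotation: of 22277, 19064 had 1 gene symbol and 1043 several.

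Intensities were floored at 1 and taken to log2. The upper 50 percent of probe sets by mean log2 were kept, with the brightest for each gene (6838 genes); other probe sets of members came from a fit of all 9798 kept ones. limma 3.58.1 in R 4.3.3 (lmFit, eBayes with an intensity trend) fitted treatment with time as a block, the slope on log2 hours, 12 h against 3 h, and the 6 h and 12 h pairs alone. Those had 2, 1, 2 and 1 residual degrees of freedom. Called means a Benjamini-Hochberg adjusted p under 0.05 over all features. The scripts were tested on simulated data, where the slope fit and, less so, the treatment fit made more false calls than the threshold allows. With 1 array a time, single-time folds have no replicate check, and 6 arrays limit the precision.

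Members and gene lists were chosen with earlier results of these data known, and BCL2L1 probe sets were singled out after their values were seen. The text names all members, the 4 regulators with the largest mean ratio and genes called in a list. Alternatives were other scalings, filters, floors, summaries over probe sets and leaving out each time.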

Additional observations from a re-analysis of the deposited data

Results flagged for a closer look

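The enzastaurin ratio of BCL2L1 215037_s_at differed between times, by a slope of 1.89 per doubling of hours in limma (adjusted p = 0.000293), with log2 ratios of -1.09, 1.97 and 2.69 at 3, 6 and 12 h. The call was lost, at slopes of 1.96 and 1.89, with equal medians of the kept probe sets (adjusted p = 0.0622) and with no filter (adjusted p = 0.0696). The other 2 BCL2L1 probe sets had no such call. Groups of 3 arrays are too small to look for a single outlying array.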

How the results depend on the processing

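Genes called for enzastaurin numbered 4, and 1 each with quantile normalization, medians of all probe sets set equal, or no filter, 2 with no time term, 0 with no intensity trend in limma (360 at an unadjusted p under 0.05), and 0 to 247 when each time was left out. The 247 came without the 3 h pair; without the 6 h or the 12 h pair limma called 0 (169 and 134 unadjusted). Genes called for the slope numbered 98, 167 with medians of all probe sets set equal, 151 with no filter, and 0 in limma with quantile normalization (722 unadjusted) or equal medians of the kept genes (675 unadjusted). Genes 2-fold apart at 3, 6 and 12 h numbered 310, 603 and 977, against 1578, 2061 and 2224 with no filter and 123, 279 and 499 in the upper 25 percent; testing every kept probe set gave 498 at 3 h and 936 at 6 h, and an offset of 16 gave 204 at 3 h. Mean log2 ratios near 0 turned sign: MCL1 (-0.01) to 0.0564 with quantile normalization, 0.0533 with equal medians of the kept genes and 0.0698 with the median over probe sets, and from -0.16 to 0.24 when each time was left out; BAK1 to 0.0188 without the 6 h pair (lowest -0.20); BID to 0.0439 without the 12 h pair (lowest -0.68). The BCL2L1 slope turned from -0.20 to 1.84 (adjusted p = 0.000181 in limma) with the median over its 3 probe sets, which then follows 215037_s_at and 206665_s_at. The mean ratio of 215037_s_at was 0.80 without the 6 h pair and 0.44 without the 12 h pair, and of 206665_s_at 1.19 and 0.84, none called. In the 6 h and 12 h pairs both probe sets stayed called under the alternatives run, with adjusted p up to 0.00988 and 0.0314; these were chosen after seeing the data. The cause of the other changes was not tested. Weak signal limits BCL2A1, BAX and the paler probe sets of BCL2, BCL2L11 and PMAIP1.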
